A study of Homo sapiens with 12 samples.

Results

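ID4, which encodes an inhibitor of DNA binding, was expressed at a lower level in HEK293 cells without AMPK than in wild-type cells, in every library and under every treatment. It is one of 8 genes for short-lived transcriptional repressors of the basic helix-loop-helix class that were followed here: ID1, ID2, ID3 and ID4 of the ID family, and HES1, HES4, HES6 and HEY1 of the HES and HEY family. They were picked by name among the 26058 genes listed in the deposited expression table, after their Ensembl identifiers had been matched to GENCODE symbols. All 8 were listed and all 8 had a mean above the minimum level for testing (a mean of 0.5 RPKM, reads scaled by gene length and library size), as did 22067 genes in total.

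RNA from HEK293 cells, a human embryonic kidney line, was sequenced after ribosomal RNA depletion to ask whether AMPK is needed for the effect of cordycepin on genes that respond to epidermal growth factor (EGF). AMPK is a kinase that senses low cellular energy, and cordycepin is 3′-deoxyadenosine, an adenosine analogue without the hydroxyl group from which an RNA chain is extended. Wild-type cells (WT) and cells in which CRISPR-Cas9 had been used against the genes of both catalytic AMPKα subunits (AMPK KO) were all kept for 24 h in low serum, 0.1% per the labels and 0.5% in the general methods of the study. They then received DMSO (0.025%) alone, DMSO for 20 min followed by EGF for 30 min (DMSO+EGF), or 25 µM cordycepin for 20 min followed by EGF for 30 min with cordycepin still present (cordycepin+EGF). The cordycepin was dissolved in DMSO, and the labels give 0.025% DMSO for all 6 groups. EGF was given at 15, in nM or µM according to the source, and DMSO alone for 20 or 50 min, and none of these points was resolved. Whether the AMPK KO cells were 1 clone or a pool was not given in the sources used here, so a difference between the lines cannot be told apart from a difference between isolates. Each of the 6 groups had 2 libraries, numbered 2 and 3. Replicate 1 of each group had been discarded by the authors as an outlier and is not used here. The study calls the replicates biological, but the labels do not say that they were separate cultures, so p-values measure only the spread between these libraries.

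ID proteins have a helix-loop-helix domain but no basic region, so they dimerise with E proteins such as TCF3 and keep them off DNA. Their genes are classical targets of bone morphogenetic protein (BMP) signalling through SMAD1 and SMAD5. HES and HEY proteins do bind DNA, and HES proteins recruit TLE corepressors. Several HES and HEY genes are switched on by Notch through the DNA-binding protein RBPJ, after which HES1 represses its own promoter. HES6 differs from the rest in that it can restrain HES1. In these families both the mRNA and the protein can turn over fast, which makes their mRNA levels informative over short treatments.

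The promoters of the most abundant HES genes and of ID4 are shown because the results below turn on these genes. The stretches are the 150 bases before the RefSeq transcription start in GRCh38.p14, printed 5′ to 3′ on the strand of the gene. Capitals mark the RBPJ core TGGGAA in HES1 (chr3:194135998-194136147, plus strand) and HES4 (chr1:1000098-1000247, minus strand), and the TATA box TATAAA in ID4 (chr6:19837220-19837369, plus strand).
HES1: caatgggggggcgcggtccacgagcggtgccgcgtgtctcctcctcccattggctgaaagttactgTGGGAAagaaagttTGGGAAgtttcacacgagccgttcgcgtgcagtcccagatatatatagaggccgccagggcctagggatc
HES4: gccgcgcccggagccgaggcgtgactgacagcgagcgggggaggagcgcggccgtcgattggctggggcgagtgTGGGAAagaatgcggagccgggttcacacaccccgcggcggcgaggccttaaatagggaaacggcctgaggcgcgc
ID4: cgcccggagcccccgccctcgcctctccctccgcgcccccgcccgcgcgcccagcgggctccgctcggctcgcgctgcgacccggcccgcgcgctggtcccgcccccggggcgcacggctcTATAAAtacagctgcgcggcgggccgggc

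HES1 held 2 copies of the RBPJ core, 84 and 70 bases before the start, and HES4 held 1, 76 bases before it. None of the other 5 members with a printable promoter had a match on either strand between 250 bases before and 50 bases after the start, and 24.0% of 35116 RefSeq promoters of that length had one. At least 2 copies, as in HES1, were found in 3.8% of them. HES1 also had 4 matches to the N box CACNAG and 2 to the class C site CACGCG, both of which HES proteins can bind, and these were found in 38.0% and 11.4% of promoters. TATAAA occurred in ID1, ID4 and HES6 and in 11.5% of promoters. None of the 7 members searched, all but HEY1, had the BMP-responsive SMAD site GGCGCC (19.2% of promoters) or the E box CACGTG (7.3%). Nor did they have the cyclic AMP response element TGACGTCA (1.8%) or a CArG box (1.3%), the element through which serum response factor acts. Sequence outside this window was not searched, so sites further from the start would have been missed. CCAAT, on either strand, was present in 6 members and in 34.6% of promoters. These matches describe the letters in the window, not bound factors.

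The libraries differed in depth. WT DMSO replicate 3 held 4005555 reads recovered on listed genes, and the others held 12664905 to 26422487, a 6.6-fold range. Replicates of WT DMSO also differed most (r = 0.918 across genes, against 0.961 to 0.977 in the other groups). PRKAA1, one of the genes targeted, was at 11.2 to 21.9 RPKM in WT and 7.03 to 8.51 RPKM in AMPK KO libraries. PRKAA2, the other, was at 6.78 to 12.1 RPKM in WT and 5.39 to 7.43 RPKM in AMPK KO, and the lines overlapped under cordycepin. The immediate early gene EGR1 went from 2.38 to 2.64 RPKM with DMSO to 207 to 230 RPKM with EGF in WT, and from 2.17 to 2.38 to 106 to 107 RPKM in AMPK KO. Of 10 HEK293 marker genes 8 passed the filter, with NEFM at 0.117 RPKM and PAX2 at 0.465 RPKM on average, and of 15 markers of blood, endothelial, fibroblast, liver and glial cells 1 did (COL1A1, 0.712 RPKM). In bulk RNA, fewer expressing cells and less RNA per cell cannot be told apart.

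The members spanned a wide range of expression. HES4 was the most abundant with a mean of 89.4 RPKM over 12 libraries (39.7 to 124 RPKM), above 98.5% of tested genes. HES1 followed at 26.3 RPKM (16.2 to 34.9), and the libraries of HES1 and HES4 did not overlap. ID4, at 14.3 RPKM, and ID2, at 7.30 RPKM, each overlapped their neighbours in this order. HES6, ID3 and HEY1 had nearly the same values, with means of 3.95, 3.74 and 3.55 RPKM. ID1 was lowest at 0.969 RPKM (0.469 to 1.70) and lay below every other member in all libraries, resting on only 5 to 53 reads per library, so its values carry the largest counting error. RPKM is scaled per length, so these levels can be compared between genes, but only roughly. The length used was the union of annotated exons, which for ID1 (1233 bases) and HEY1 (5487 bases) equals the span of the whole gene. The levels were not corrected for GC content.

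**Figure D1:**
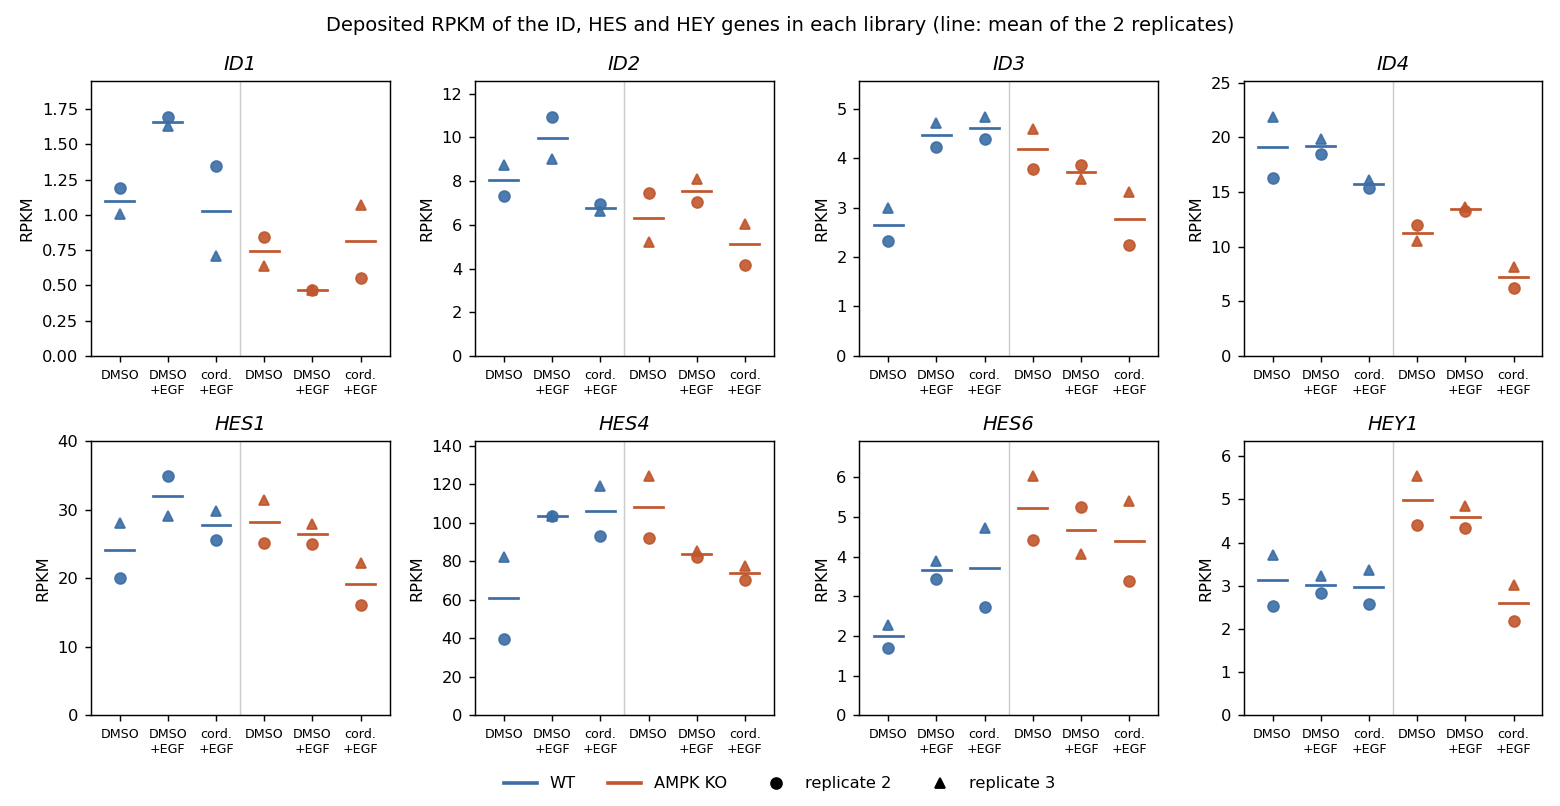
Deposited RPKM (vertical axis, starting at 0) of the 8 genes in each library of the 6 groups (horizontal axis; cord. is cordycepin), with WT in blue and AMPK KO in orange, circles for replicate 2, triangles for replicate 3 and a line at the mean of the 2. All 6 AMPK KO libraries of ID4 lie below all 6 WT libraries, and the HES4 replicates of WT DMSO lie far apart (39.7 and 82.2 RPKM).

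ID4 (ENSG00000172201, GRCh38 chromosome 6, 19837370 to 19842197, plus strand) showed the clearest difference between the lines. In WT cells it was at 16.3 and 21.9 RPKM with DMSO, 18.5 and 19.9 RPKM with DMSO+EGF and 15.3 and 16.1 RPKM with cordycepin+EGF. In AMPK KO cells it was at 11.95 and 10.5 RPKM, 13.3 and 13.6 RPKM, and 6.21 and 8.17 RPKM in the same order. All 6 AMPK KO libraries therefore lay below all 6 WT libraries, a pattern shared by 1.06% of tested genes. ID4 was the best covered of the ID genes, with 341 to 1817 reads per library. Averaged over the 3 treatments, AMPK KO was lower by a log2 fold change of -0.77 (SE 0.09, 95% interval -0.98 to -0.55, limma adjusted p = 0.00425), and the mean RPKM over the 6 AMPK KO libraries was 0.59 times that over the 6 WT libraries. This average was added after ID4 had been seen to be lower in each treatment, so its p is not independent of that choice. ID4 was the only 1 of 8 members past an adjusted p of 0.05 in it, where 4.34% of tested genes passed, and ranked 102 by p among all genes. At an unadjusted p under 0.05 the average had 5 members (20.4% of tested genes), with ID1 (-0.58), ID2 (-0.37) and ID4 lower and HES6 (0.58) and HEY1 (0.33) higher. The average was -0.10 for ID3, -0.18 for HES1 and 0.03 for HES4. The adjusted p of ID4 was 0.000163 to 0.0254 under the alternatives run.

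Within single treatments the difference in ID4 had the same sign but did not pass adjustment over all genes. The log2 fold change of AMPK KO against WT was -0.75 with DMSO (adjusted p = 0.0717, SE 0.16), -0.48 with DMSO+EGF (adjusted p = 0.132, SE 0.16) and -1.07 with cordycepin+EGF (adjusted p = 0.0631, SE 0.16). These comparisons contrast different libraries, but their p-values rest on the same estimate of the spread from the joint fit and are not independent. LNC-LBCS, a long non-coding gene that overlaps ID4 on the opposite strand, was at 0.017 to 0.074 RPKM. ID4 had a transcript GC content of 41.4%, and removing the trend of expression on GC left the average over treatments past the threshold.

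The other 3 ID genes were compared with ID4. ID2 (ENSG00000115738, chromosome 2, 8678845 to 8684461, plus strand), which pairs with the same E proteins, had log2 fold changes of -0.36, -0.36 and -0.38 (SE 0.22 in each) in AMPK KO against WT with DMSO, DMSO+EGF and cordycepin+EGF, none past the threshold. With 1 library left out they ran from -0.61 to -0.10, from -0.50 to -0.21 and from -0.62 to -0.15. Its libraries overlapped between the lines with DMSO (7.33 and 8.76 against 7.46 and 5.21 RPKM) but not with DMSO+EGF (10.9 and 9.01 against 7.03 and 8.12 RPKM) or cordycepin+EGF (6.96 and 6.62 against 4.17 and 6.04 RPKM). Across the 12 libraries ID2 and ID4 had the second highest correlation of the 28 pairs of members (r = 0.843), a description over libraries that share cell line and depth.

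ID1 (ENSG00000125968, chromosome 20, 31605283 to 31606515, plus strand), the most studied BMP target of the family, had its largest difference between the lines after EGF. It was at 1.70 and 1.63 RPKM in WT DMSO+EGF (53 and 33 reads) and at 0.469 and 0.470 RPKM in AMPK KO DMSO+EGF (8 and 8 reads). The ratio of the mean RPKM values was 0.283. On the log2(RPKM + 0.5) scale, which understates changes at such low levels, the fold change was -1.14 (adjusted p = 0.0608, SE 0.26), against -0.84 with a pseudocount of 1, -1.61 with one of 0.1 and -1.76 with voom on the recovered reads. With DMSO alone it was at 1.19 and 1.01 RPKM in WT against 0.843 and 0.640 RPKM in AMPK KO, and with cordycepin+EGF at 1.35 and 0.708 against 0.554 and 1.07 RPKM, where the lines overlapped. The log2 fold changes there were -0.38 and -0.21 (SE 0.26 in each). The adjusted p for DMSO+EGF was 0.0359 with voom on the recovered reads and 0.0343 when only these 4 libraries were fitted with limma. These settings called 2448 and 2215 genes in all.

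ID3 (ENSG00000117318, chromosome 1, 23557926 to 23559501, minus strand) had differences of opposite sign in different treatments. With DMSO it was higher in AMPK KO (3.78 and 4.58 RPKM) than in WT (2.32 and 2.99 RPKM), a log2 fold change of 0.55 (adjusted p = 0.16, SE 0.19). With cordycepin+EGF it was lower in AMPK KO (2.24 and 3.32 RPKM) than in WT (4.38 and 4.83 RPKM), a log2 fold change of -0.64 (adjusted p = 0.253, SE 0.19). With DMSO+EGF the difference was -0.22 (SE 0.19), and none of the 3 passed adjustment.

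HES6 (ENSG00000144485, chromosome 2, 238238267 to 238240662, minus strand) and HES4 (ENSG00000188290, chromosome 1, 998962 to 1000172, minus strand) leaned the other way in unstimulated cells. With DMSO, HES6 was at 4.42 and 6.03 RPKM in AMPK KO and 1.71 and 2.29 RPKM in WT, a log2 fold change of 1.17 (adjusted p = 0.0863, SE 0.28). HES4 was at 91.9 and 124 RPKM in AMPK KO and 39.7 and 82.2 RPKM in WT, a log2 fold change of 0.87 (adjusted p = 0.15, SE 0.29). For HES4 the fold change depended on which library was left out: it was 0.36 without WT DMSO replicate 2 and 1.39 without WT DMSO replicate 3. For HES6 it ran from 0.98 to 1.36 with 1 library left out. With DMSO+EGF and cordycepin+EGF the differences were 0.32 and 0.24 for HES6 (SE 0.28 in each) and -0.29 and -0.49 for HES4 (SE 0.29 in each). Under the settings other than leaving out a library, these HES4 values ran from -0.307 to -0.035 and from -0.507 to -0.127. A non-coding gene opposite HES6 (ENSG00000225057) was at 0.056 to 0.491 RPKM, and the strand setting of the counting was not given in the sources used here.

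HEY1 (ENSG00000164683, chromosome 8, minus strand) was at 4.42 and 5.53 RPKM in AMPK KO and 2.54 and 3.71 RPKM in WT with DMSO, and at 4.34 and 4.86 against 2.83 and 3.24 RPKM with DMSO+EGF. The log2 fold changes were 0.59 (adjusted p = 0.177, SE 0.22), or 0.36 to 0.82 with 1 library left out, and 0.55 (adjusted p = 0.181, SE 0.22). With cordycepin+EGF the lines overlapped (2.18 and 3.02 against 2.59 and 3.36 RPKM), with a difference of -0.15 (SE 0.22). HES1 (ENSG00000114315, chromosome 3, 194136148 to 194138732, plus strand), the canonical Notch target, overlapped between the lines with DMSO and had log2 fold changes of 0.22, -0.25 and -0.51 (SE 0.21 in each) in the order DMSO, DMSO+EGF and cordycepin+EGF.

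Counted within each treatment, no member passed an adjusted p of 0.05 for AMPK KO against WT. With DMSO 0.440% of all tested genes passed, with DMSO+EGF 1.74%, and with cordycepin+EGF 0.118%. At an unadjusted p under 0.05 there were 5 members with DMSO (ID3, HES4, HES6 and HEY1 higher, ID4 lower), where 21.3% of tested genes passed. There were 3 with DMSO+EGF (HEY1 higher, ID1 and ID4 lower), where 22.5% passed, and 3 with cordycepin+EGF (ID3, ID4 and HES1 lower), where 13.7% passed. The median log2 fold change of the members was 0.39, -0.27 and -0.43 in these conditions, against 0.01, -0.01 and 0.01 over all tested genes. Voom on the recovered reads called 4, 1 and 1 members, among 1769, 2448 and 340 genes called in all. The libraries of the lines did not overlap for 6, 8 and 5 members, which was also so for 48.5%, 62.8% and 45.6% of tested genes, in either direction.

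**Figure D2:**
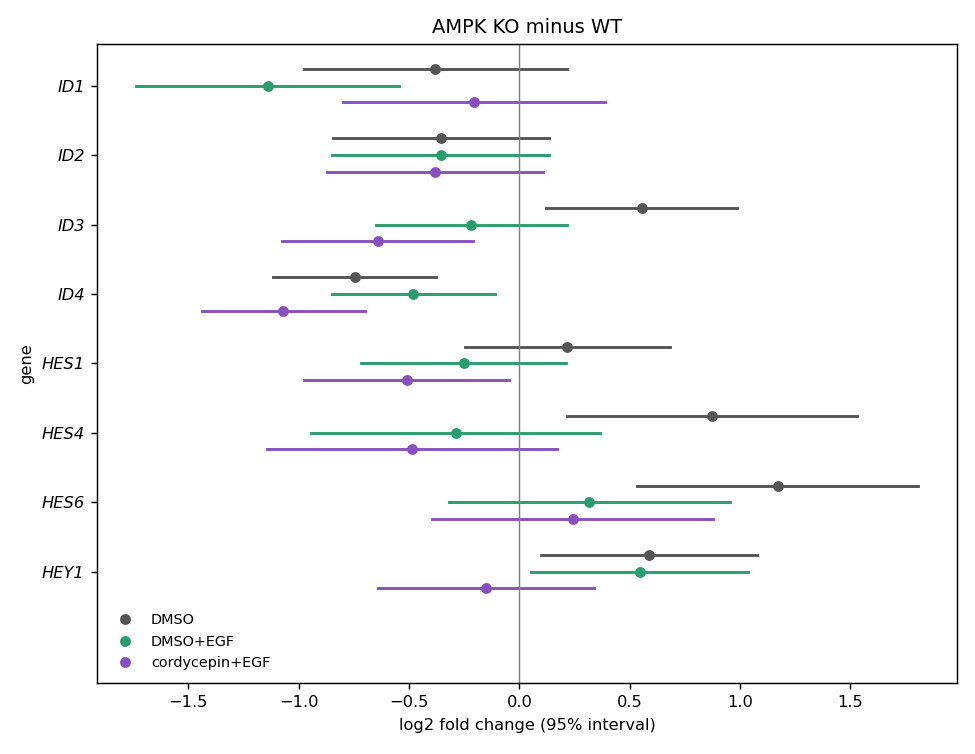
Log2 fold change of AMPK KO against WT (horizontal axis; points, with bars for the 95% interval) for each gene (vertical axis) with DMSO (grey), DMSO+EGF (green) and cordycepin+EGF (purple), 2 libraries per group. The ID4 intervals lie below 0 in all 3 conditions, while those of HES4 and HES6 lie above 0 only with DMSO.

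EGF was then compared with DMSO in each line. In WT cells 6 of 8 members were higher with EGF, while 47.7% of all tested genes were lower. The median log2 fold change of the members was 0.40 against 0.02 over all tested genes, but no member passed an adjusted p of 0.05 (0.0227% of tested genes did). In these 6 the EGF and DMSO libraries did not overlap, as in 36.5% of tested genes in either direction. ID3, HES4 and HES6 had an unadjusted p under 0.05, as did 9.72% of tested genes. ID3 was at 4.22 and 4.71 RPKM after EGF against 2.32 and 2.99 RPKM before, a log2 fold change of 0.64 (adjusted p = 0.443, SE 0.19). HES6 was at 3.45 and 3.89 RPKM after EGF against 1.71 and 2.29 RPKM before, a log2 fold change of 0.72 (adjusted p = 0.497, SE 0.28). HES4 was at 104 RPKM in both libraries after EGF, a log2 fold change of 0.82 (adjusted p = 0.491, SE 0.29), which was 0.31 without WT DMSO replicate 2 and 1.34 without WT DMSO replicate 3.

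ID1 and HES1 were also above their DMSO libraries in both WT EGF libraries, by log2 fold changes of 0.42 (SE 0.26) and 0.39 (SE 0.21), as was ID2, by 0.27 (SE 0.22). HES1 went from 20.05 and 28.1 RPKM to 34.9 and 29.2 RPKM, so that the gap between the groups was small beside the gap between replicates. ID4 and HEY1 had log2 fold changes of -0.005 (95% interval -0.37 to 0.36) and -0.05 (95% interval -0.54 to 0.44), values that leave room for changes in either direction.

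In AMPK KO cells no member had even an unadjusted p under 0.05 for EGF against DMSO, where 2.42% of tested genes did and 0.0136% passed adjustment. The median log2 fold change of the members was -0.11, and libraries did not overlap for 3 members, against 38.5% of tested genes. HES4 was at 82.2 and 85.2 RPKM after EGF against 91.9 and 124 RPKM before, a log2 fold change of -0.34 (SE 0.29). HES6 and ID3 had log2 fold changes of -0.13 (SE 0.28) and -0.13 (SE 0.19), with overlapping replicates. Of the other ID genes, ID4 (0.26, SE 0.16) and ID2 (0.27, SE 0.22) had positive values and ID1 a negative one (-0.35, SE 0.26). HES1 and HEY1 had values of -0.08 (SE 0.21) and -0.09 (SE 0.22).

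The difference in EGF effect between the lines was tested directly. It was negative for 7 of 8 members and for 51.1% of all tested genes, with a median of -0.62 against -0.01 over all tested genes. No gene passed adjustment (0% of 22067). HES4 (-1.16, SE 0.41, limma adjusted p = 0.57) and ID3 (-0.77, SE 0.27, limma adjusted p = 0.57) had an unadjusted p under 0.05, as did 8.69% of tested genes. The values of the others were -0.85 for HES6, -0.76 for ID1, -0.47 for HES1, -0.04 for HEY1, -0.001 for ID2 and 0.27 for ID4. In ID1 and HES4 the EGF libraries lay wholly above the DMSO libraries in WT and wholly below them in AMPK KO, and 10.3% of tested genes had such opposite changes in 1 sense or the other. The test contrasts the WT and AMPK KO DMSO libraries, so it shares them with the comparison of unstimulated lines above.

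Base composition moved with these effects. HES4 transcripts had a GC content of 73.9%, above 99.9% of tested genes, and HES6 68.4%, above 99.3%. Across 22044 tested genes, which are not independent replicates, the correlation of GC with log2 fold change was 0.304 for EGF in WT, -0.241 for EGF in AMPK KO, 0.285 for AMPK KO against WT with DMSO and -0.372 for the difference in EGF effect. With each library's trend on GC removed, an alternative chosen after seeing the data, the EGF effect on HES4 in WT was 0.34 and on HES6 0.35, and the difference between the lines with DMSO was 0.39 for HES4 and 0.79 for HES6. No member then had an unadjusted p under 0.05 for the difference in EGF effect. The part of GC content in the results was not tested beyond this.

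**Figure D3:**
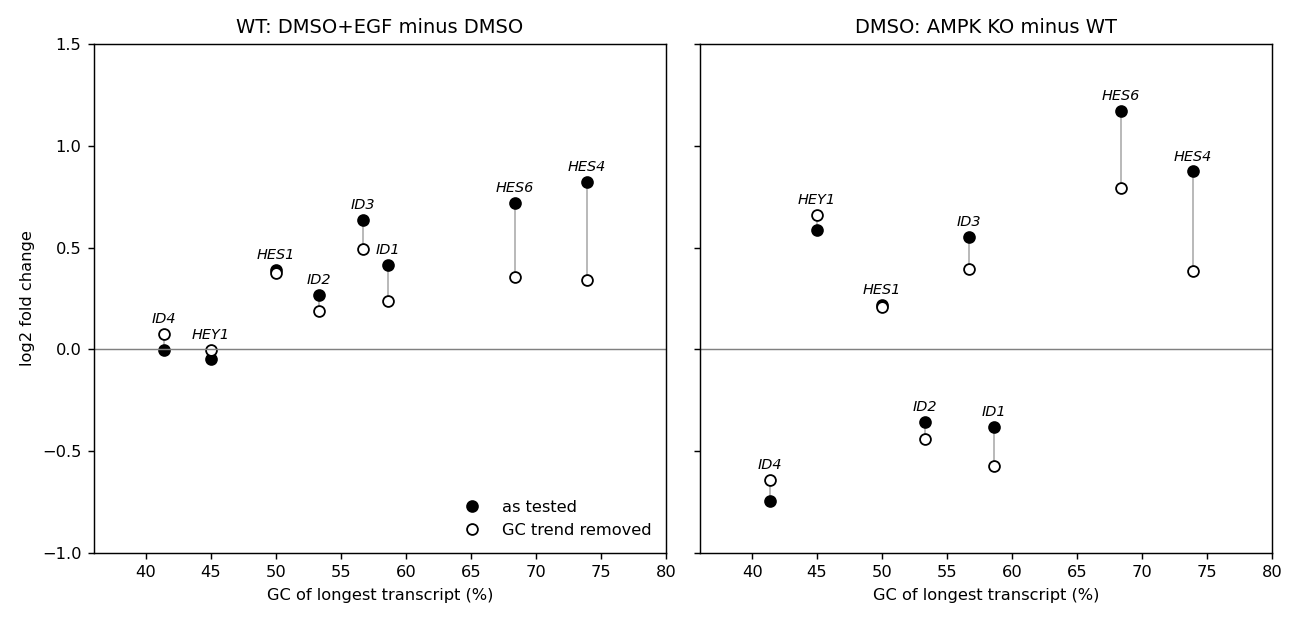
Log2 fold change (vertical axis) of each gene against the GC content of its longest transcript (horizontal axis, %), for EGF in WT (left) and for AMPK KO against WT with DMSO (right), as tested (filled) and with the GC trend removed (open), joined by a line. The values of HES4 (73.9% GC) move from 0.82 to 0.34 and from 0.87 to 0.39, while those of HES1 (50% GC) hardly move.

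Cordycepin+EGF was finally compared with DMSO+EGF. In AMPK KO cells 7 of 8 members were lower with cordycepin, as were 44.9% of all tested genes, with a median log2 fold change of -0.38 against 0.06 over all genes. No member passed an adjusted p of 0.05 in limma (0.471% of tested genes did), and ID2, ID4 and HEY1 had an unadjusted p under 0.05, as did 21.8% of tested genes. Voom on the recovered reads called ID4 and HEY1 (adjusted p = 0.0171 and 0.0445), among 1301 genes called in all. All 8 members were higher in replicate 3 than in replicate 2 of AMPK KO cordycepin+EGF, by a median of 0.45 on the log2 scale, against a median absolute difference of 0.25 over all genes. The libraries with and without cordycepin did not overlap for 7 of 8 members, all but HES6, and for 59.2% of tested genes in either direction.

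ID4 showed the largest of these differences among the members. It was at 6.21 and 8.17 RPKM with cordycepin against 13.3 and 13.6 RPKM without, a log2 fold change of -0.83 (adjusted p = 0.062, SE 0.16), with a ratio of mean RPKM of 0.535. HEY1 was at 2.18 and 3.02 RPKM against 4.34 and 4.86 RPKM, a log2 fold change of -0.69 (adjusted p = 0.126, SE 0.22), and ID2 at 4.17 and 6.04 RPKM against 7.03 and 8.12 RPKM, a log2 fold change of -0.50 (adjusted p = 0.222, SE 0.22). With 1 library left out the ID2 value ran from -0.74 to -0.26. HES1 was at 16.2 and 22.3 RPKM against 24.97 and 27.9 RPKM, a log2 fold change of -0.42 (adjusted p = 0.273, SE 0.21), or -0.64 to -0.20 with 1 library left out. ID3 had a value of -0.34 (SE 0.19), and ID1 was the 1 member with a positive value (0.44, SE 0.26). HES4 and HES6 had log2 fold changes of -0.13 (SE 0.29) and -0.06 (SE 0.28).

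In WT cells members lay evenly on both sides, 4 higher and 4 lower, with a median of -0.08 against 0.03 over all genes. None passed adjustment or had an unadjusted p under 0.05 in limma, where 0.00453% and 16.0% of tested genes did. ID2 came nearest, at 6.96 and 6.62 RPKM with cordycepin against 10.9 and 9.01 RPKM without, a log2 fold change of -0.48 (adjusted p = 0.321, SE 0.22), close to its value in AMPK KO cells. ID4 was at 15.3 and 16.1 RPKM against 18.5 and 19.9 RPKM, a log2 fold change of -0.24 (adjusted p = 0.478, SE 0.16). ID1 had a value of -0.50 (SE 0.26), HES1 of -0.16 (SE 0.21) and ID3 of 0.08 (SE 0.19), and HES4, HES6 and HEY1 lay within 0.07 of 0. The groups did not overlap for 3 members, against 53.5% of tested genes.

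The effect of cordycepin differed between the lines at an unadjusted p under 0.05 for 3 members, where 21.4% of tested genes did and 0% passed adjustment. The difference was -0.59 for ID4 (SE 0.23, limma adjusted p = 0.194), -0.70 for HEY1 (SE 0.31, limma adjusted p = 0.232) and 0.93 for ID1 (SE 0.37, limma adjusted p = 0.199). For ID2 it was -0.02 (95% interval -0.72 to 0.67), and for ID3, HES1, HES4 and HES6 it was -0.43, -0.26, -0.20 and -0.07. ID1 alone among the members had opposite changes without overlap, lower in WT and higher in AMPK KO, and 18.3% of tested genes had opposite changes in 1 sense or the other.

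**Figure D4:**
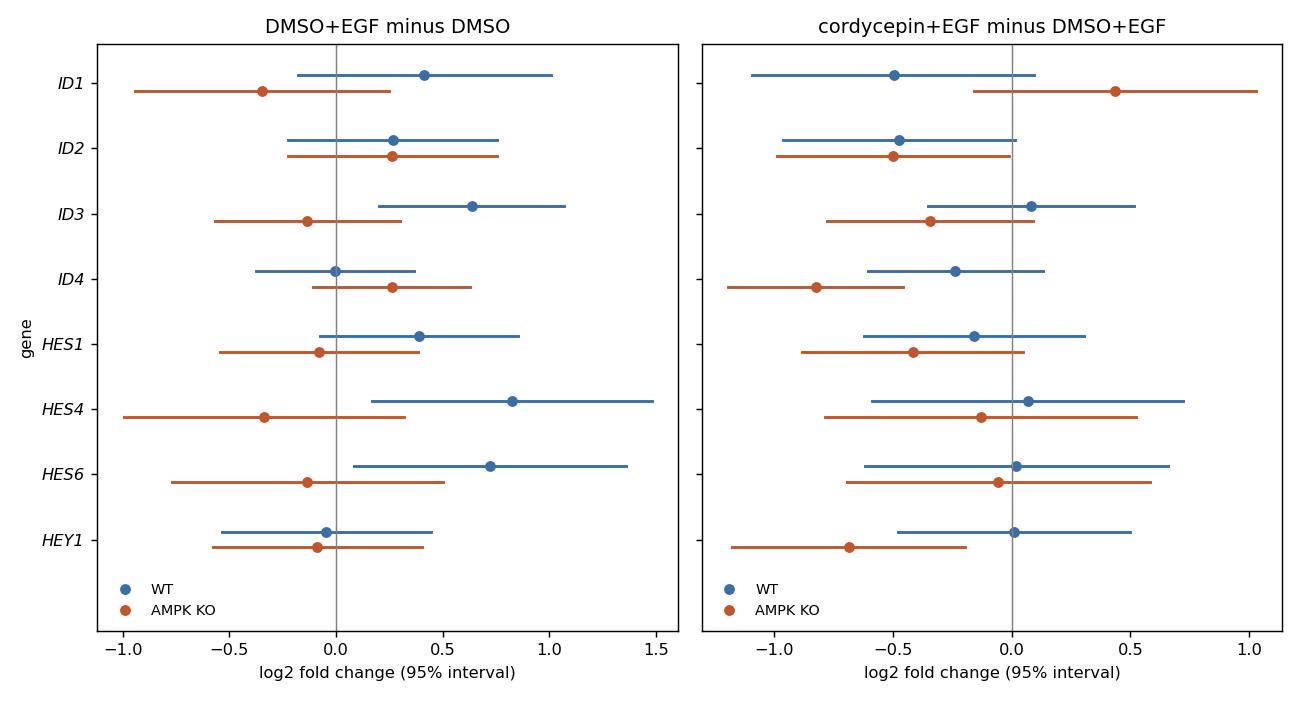
Log2 fold change (horizontal axis; points, with bars for the 95% interval) of each gene (vertical axis) for EGF against DMSO (left) and cordycepin+EGF against DMSO+EGF (right), in WT (blue) and AMPK KO (orange), 2 libraries per group. The intervals of ID3, HES4 and HES6 lie above 0 for EGF in WT and those of ID2, ID4 and HEY1 below 0 for cordycepin in AMPK KO, although no difference between the lines in either effect passed adjustment.

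Genes of the pathways around the members were read from 3 lists. The BMP list held E proteins, BMP ligands and antagonists, receptors and SMADs, and 19 of its 26 genes were tested. ACVR2B, a receptor for activins and BMPs, was the only 1 called within a treatment, at 19.6 ± 0.145 RPKM in AMPK KO and 11.1 ± 1.65 RPKM in WT with DMSO+EGF (SD, n = 2; log2 fold change 0.81, SE 0.13, limma adjusted p = 0.0263). It was also called in the average over treatments (0.47, SE 0.07, adjusted p = 0.0104). With cordycepin+EGF it was at 13.6 ± 0.741 RPKM in AMPK KO and 13.7 ± 0.0523 RPKM in WT (SD, n = 2), with cordycepin effects of -0.47 in AMPK KO and 0.34 in WT that did not pass adjustment (limma adjusted p = 0.096 and 0.279). In AMPK KO against WT with DMSO+EGF the ligand gene BMP7 (-0.56, SE 0.18, adjusted p = 0.122) and the inhibitory SMAD gene SMAD6 (-0.50, SE 0.18, adjusted p = 0.156), itself a BMP target, had negative values. TCF3, the E protein gene with 34.6 ± 0.138 RPKM in AMPK KO and 27.3 ± 0.154 RPKM in WT (SD, n = 2), had a positive one (0.35, SE 0.14, adjusted p = 0.176). In that comparison 2 genes of the list were higher and 2 lower at an unadjusted p under 0.05, which 22.5% of all tested genes reached in either direction. The median of the list was 0.005, against -0.005 over all tested genes.

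The Notch list held ligands, receptors, nuclear partners, TLE corepressors and other HES and HEY genes, and 30 of its 39 genes were tested. None passed adjustment in any comparison in limma, and at an unadjusted p under 0.05 there were at most 7 in a comparison, with DMSO in AMPK KO against WT, where 21.3% of all tested genes were past it. Of these 7, 4 were higher and 3 lower, and the median of the list was -0.07 against 0.01 over all tested genes. RFNG, which modifies Notch receptors (0.94, SE 0.19, adjusted p = 0.0623), and the ligand gene DLL1 (0.96, SE 0.20, adjusted p = 0.0629) had the smallest p, followed by the corepressor gene TLE1 (0.36, SE 0.14, adjusted p = 0.183). With DMSO+EGF, HES7 (-1.05, SE 0.29, adjusted p = 0.089), JAG2 (-0.55, SE 0.15, adjusted p = 0.091) and NOTCH2 (-0.73, SE 0.23, adjusted p = 0.117) had negative values. With cordycepin+EGF the smallest p was that of the ligand gene JAG2 (-0.86, SE 0.15, adjusted p = 0.13).

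The third list held 26 genes for other basic helix-loop-helix factors, not all of them activators, that ID and HES proteins can restrain. Of these, 14 were listed and 8 tested, and the rest were not listed or lay below the filter. HAND2, a heart and limb factor, was called lower in AMPK KO in the average over treatments (0.826 ± 0.243 RPKM in 6 AMPK KO libraries and 1.39 ± 0.228 RPKM in 6 WT libraries, SD; log2 fold change -0.52, SE 0.11, limma adjusted p = 0.0316). MSC (0.72, adjusted p = 0.0617) and OLIG1 (-0.51, adjusted p = 0.0815) followed. Within treatments HAND2 was at -0.68 with DMSO and -0.68 with DMSO+EGF (limma adjusted p = 0.109 and 0.0858). HAND2 and OLIG1 reached an unadjusted p under 0.05 with DMSO and with DMSO+EGF but not with cordycepin+EGF. MSC reached it only with cordycepin+EGF (1.355, limma adjusted p = 0.187). The median over this list was -0.35, against 0.00 over all tested genes.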

How the data were processed

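The members and gene lists were chosen with earlier results of these data known. The authors sequenced paired reads, aligned these with GRCh38.p13 and deposited per-gene read counts in the form of RPKM values. Of 26058 listed genes, 26029 matched GENCODE release 44. Whole reads, within 0.05 of a read, were recovered for 96.25% of genes at the annotated length (98.94% after a length search) and for all 8 members, and gave 4005555 to 26422487 reads per library. They carry no molecular identifiers. Two-sided tests used limma 3.58.1 in R 4.3.3 (lmFit, eBayes with trend) on log2(RPKM scaled by upper quartile + 0.5), which makes fold changes of weakly expressed genes too small. All 12 libraries entered 1 fit (6 residual degrees of freedom), with Benjamini-Hochberg adjustment over the 22067 genes whose mean RPKM reached 0.5 in each of 10 comparisons. An exact permutation test of 2 against 2 libraries cannot go below p = 0.333. Scripts were tested on simulated data.

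Values of all 8 members were given in every comparison. Of the 3 pathway lists, calls at an adjusted p under 0.05 and otherwise up to 3 genes per comparison with the smallest unadjusted p were eligible, as were, per member, the 3 genes with the highest correlation among those of mean RPKM 5 or more. The other settings tried were leaving out each library, voom on recovered reads, replicate blocks (1 over all libraries, 1 within each cell line, both centred so that the lines were compared at the mean of their replicates), eBayes without trend, fits restricted to the groups compared, median-ratio or no further scaling, a higher filter (mean RPKM 1) or none, and pseudocounts of 0.1 and 1. GC trend removal, array weights and the average over 3 treatments were added after seeing the data. Promoters came from RefSeq (7 of 8 members).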

Additional observations from a re-analysis of the deposited data

Results flagged for a closer look

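In 3 cases both libraries of 1 line lay above their controls and both libraries of the other line below them. Of all tested genes, 10.3% had such opposite changes for EGF and 18.3% for cordycepin. For ID1, the EGF effect was 0.42 in WT and -0.35 in AMPK KO, a difference of -0.76 (SE 0.37, limma adjusted p = 0.593). Its cordycepin effect was -0.50 in WT and 0.44 in AMPK KO, a difference of 0.93 (SE 0.37, limma adjusted p = 0.199), with the ID1 replicates under cordycepin+EGF at 1.35 and 0.708 RPKM in WT and 0.554 and 1.07 RPKM in AMPK KO. With 1 library left out this cordycepin effect ran from -0.82 to -0.18 in WT and from 0.15 to 0.72 in AMPK KO. For HES4, the EGF effect was 0.82 in WT and -0.34 in AMPK KO, a difference of -1.16 (SE 0.41, limma adjusted p = 0.57), and the WT DMSO replicates were at 39.7 and 82.2 RPKM. With each library's trend on GC removed, the EGF effect on HES4 was 0.34 in WT and -0.08 in AMPK KO. No difference passed adjustment over all genes.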

How the results depend on the processing

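Of 64 fold changes of members (8 members in 8 comparisons), 49 kept their direction under every alternative run, including that of ID4 in AMPK KO against WT under each treatment and with cordycepin in AMPK KO. The average of ID4 over treatments was -0.83 to -0.70 when 1 library was left out. With voom on recovered reads the average over treatments had 3 called members (ID1, ID4 and HES6), among 2304 genes called in all. The replicate numbers correlated in WT (r = 0.136 to 0.314 over 3 pairs of groups) but not in AMPK KO (-0.122 to 0.031), so they were not taken to pair the samples, and neither replicate block changed a call of a member. With both blocks the average of ID4 stayed at -0.77, with an adjusted p of 0.006 under the plain block and 0.0121 under the one nested in cell line. Leaving out 1 library moved 41 of the 64 fold changes by over 1.5 times or to the other sign.

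With voom on recovered reads, 2 members were called for cordycepin in AMPK KO (ID4 and HEY1), among 1301 genes called in all. For AMPK KO against WT it called 4 with DMSO (ID4, HES4, HES6 and HEY1), 1 with DMSO+EGF (ID1) and 1 with cordycepin+EGF (ID4). These were among 1769, 2448 and 340 genes. Array weights called 1 member (ID4) for cordycepin in AMPK KO, among 1193 genes called in all. For AMPK KO against WT they called 3 with DMSO+EGF (ID1, ID4 and HEY1), among 5041 genes, and 1 with cordycepin+EGF (ID4). A fit of only the compared groups called 2 with DMSO+EGF (ID1 and ID4), among 2215 genes. With 1 library left out, AMPK KO against WT with DMSO ran from -0.949 to -0.545 for ID4, from 0.359 to 1.39 for HES4 and from 0.98 to 1.36 for HES6.

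Values near 0 changed sign. The EGF effect in WT was 0.023 as deposited, 0.078 with voom and 0.074 with the GC trend removed for ID4, and 0.076 with voom for HEY1. In AMPK KO it was 0.061 for HES6 with the GC trend removed. The cordycepin effect in WT was -0.019 as deposited, -0.017 with median-ratio scaling, -0.085 with voom and -0.20 with the GC trend removed for HES6, and -0.03, -0.027 and -0.052 under the first 3 of these for HEY1. With the GC trend removed it was -0.019 for ID3 and -0.21 for HES4. With 1 library left out, the EGF effect in WT was -0.21 to 0.20 for ID4 and -0.28 to 0.19 for HEY1, and in AMPK KO -0.226 to 0.065 for HES1, -0.324 to 0.056 for HES6 and -0.222 to 0.046 for HEY1. The cordycepin effect was -0.094 to 0.229 for HES4, -0.31 to 0.35 for HES6 and -0.14 to 0.16 for HEY1 in WT, and -0.35 to 0.24 for HES6 in AMPK KO. AMPK KO against WT was -0.015 to 0.451 for HES1 with DMSO, -0.53 to 0.11 for ID1, -0.091 to 0.573 for HES6 and -0.34 to 0.04 for HEY1 with cordycepin+EGF, and -0.14 to 0.21 for HES4 on average. The cause was not tested.

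Over all genes the calls moved more. Voom called 1301 against 104 genes for cordycepin in AMPK KO, 904 against 1 in WT, 8 against 5 for EGF in WT, 1769 against 97, 2448 against 383 and 340 against 26 for AMPK KO against WT with DMSO, DMSO+EGF and cordycepin+EGF, 2304 against 957 on average and 2062 against 0 for the difference in cordycepin effect. Array weights called 1193, 16, 3, 7, 5041 and 1457 for cordycepin in AMPK KO, cordycepin in WT, EGF in WT, AMPK KO against WT with DMSO and with DMSO+EGF, and the difference in cordycepin effect. The block within each line called 63 and 231 for the lines with DMSO and DMSO+EGF, and 18, 5 and 3 for cordycepin in AMPK KO, cordycepin in WT and EGF in WT. Fits of only the compared groups called 1, 2215 and 2 for the lines in that order, 1128 for the difference in cordycepin effect, 0 for cordycepin in both lines and 1 for EGF in both. For cordycepin in AMPK KO no filter gave 234, the higher filter 45, the lower pseudocount 50, no trend 161 and GC removal 52 genes. No filter gave 188 with DMSO, and no trend 232 and GC removal 95 with DMSO+EGF. For cordycepin in WT 0 to 2 were called under pseudocounts, the block and no trend. With 1 library left out 3 to 702 genes were called for EGF in WT 1 to 4 in AMPK KO, 0 to 1 for cordycepin in WT and 0 to 39 in AMPK KO, 5 to 3065, 6 to 10 and 4 to 14 for the lines in the same order, 305 to 2890 on average and 0 to 13 for the difference in EGF effect. The depth of WT DMSO replicate 3 and the reads of ID1 limit the comparisons that use them.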

Other observations

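The genes whose log2 levels followed each member most closely over the 12 libraries were read among 9080 tested genes with a mean of at least 5 RPKM. These correlations are a description over libraries that share line, treatment and depth. For ID4 they were OXA1L (r = 0.963), a mitochondrial membrane insertase gene, NEIL3 (r = 0.945), a DNA glycosylase gene, and the histone gene H2AC8 (r = 0.941), and for ID2 they were GATA4 (r = 0.899), MT-TE (r = 0.876) and NCOA7 (r = 0.874). The closest to HES1 were the histone genes H2AC13 (r = 0.935) and H3C2 (r = 0.911) and the ribosomal protein gene RPL8 (r = 0.915). HES4 was followed most closely by SCAF1 (r = 0.987), RAVER1 (r = 0.971) and VPS9D1 (r = 0.964). HEY1 was followed by C2orf74-DT (r = 0.973), PAICS (r = 0.963), a purine synthesis gene, and CAMSAP1 (r = 0.958). The closest to HES6 were OBSL1 (r = 0.951), RGS16 (r = 0.938) and RPSA (r = 0.923), those to ID3 were CDIPT (r = 0.955), GNB2 (r = 0.931) and ZBTB22 (r = 0.93), and those to ID1 were TMEM184B (r = 0.939), RUNX3 (r = 0.918) and FAM171A1 (r = 0.895). Histone and ribosomal protein genes have near-identical copies between which reads can be split.

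Among the members themselves, ID3 and HES4 (r = 0.849) and ID3 and HES1 (r = 0.803) were also close, across families, and ID1 and HEY1 had the lowest value (r = -0.545).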
